A study of Homo sapiens with 12 samples.

Results

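The cancer-testis antigen families measured here are 10 groups of genes: MAGE-A, MAGE-B, MAGE-C, GAGE, PAGE, XAGE, SSX, CTAG, CT45A and PRAME. Members were picked by a rule on gene symbols that used no measured value, though earlier results of these data were known. The rule matched 74 of the 56609 rows of the count table. They were 13 MAGE-A, 10 MAGE-B, 3 MAGE-C, 13 GAGE, 6 PAGE, 5 XAGE, 11 SSX, 3 CTAG and 9 CT45A rows, and PRAME. Because many of these genes are near-identical copies, the counts of such copies were summed into copy groups before any comparison, which left 46 copy groups. Of these, 23 copy groups (50 rows) had enough counts to be tested, and the other 23 (24 rows) had at most 8 counts in any library. Altogether 63 of the 74 rows had a count in at least 1 library and 11 were at 0 in all 12.

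Cancer-testis antigens are proteins made in germ cells of the testis and silent in most other adult tissues, but often switched on in tumours, melanoma among them. Silencing in somatic cells is linked to DNA methylation of CpG-bearing promoters, and most of the families lie as clustered copies on the X chromosome. Type I MAGE proteins (MAGE-A, MAGE-B and MAGE-C) bind RING-type ubiquitin ligases, SSX proteins are transcriptional repressors known from the fusion protein of synovial sarcoma, and PRAME is a substrate receptor of a CUL2 ubiquitin ligase. MAGEA1, MAGEA3, MAGEA4, PRAME and NY-ESO-1, the product of CTAG1A and CTAG1B, have all been used as targets for T cells.

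The cells were A375, an established human melanoma line, in 4 groups of 3 cultures. Wild-type cells and a MAPKAPK2 knockout made with CRISPR/Cas9 were each kept for 48 h with DMSO, the solvent, or with 500 nM JQ1. MAPKAPK2 encodes MK2, a stress-activated kinase downstream of p38, and JQ1 is an inhibitor that displaces BET bromodomain proteins from acetylated chromatin. Cultures without drug are named untreated in the titles and DMSO in the treatment field. The labels do not say whether the knockout cells are 1 clone or a pool, so loss of MAPKAPK2 and any difference that came with deriving that line cannot be told apart. Nothing in the labels ties replicates to separate thaws or days, so p-values measure the spread between these cultures, which may be technical. In bulk cultures, fewer cells with a transcript and less of it per cell cannot be told apart.

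Library totals ran from 25316899 to 34594295 estimated counts, and the 74 rows together took 0.184% to 0.213% of them. MAPKAPK2 was at 87.9 to 119.7 CPM (counts per 1000000 of the scaled library) in the 6 wild-type libraries and at 11.1 to 15.7 CPM in the 6 knockout libraries. The melanocyte lineage factor SOX10 was at 389 to 687 CPM and MITF at 25.6 to 44.1 CPM in every library, while the pigment genes PMEL, MLANA, TYR and DCT stayed at or below 1.45 CPM. MITF moved with genotype, at 43.1 ± 1.01 and 28.8 ± 2.85 CPM in wild-type and knockout DMSO and at 39.2 ± 1.40 and 30.5 ± 2.55 CPM with JQ1 (SD, n = 3), and S100B did so the other way, at 29.3 and 40.0 CPM in DMSO. The 8 melanocyte markers summed to 510.7 to 802.6 CPM, with means of 556 and 563 CPM in wild-type and knockout DMSO and 667 and 674 CPM with JQ1. The part of these markers in the results was not tested. The germ cell genes DAZL, DDX4 and PRM1 were at 0 in all 12 libraries, and the 5 germ cell markers summed to at most 0.354 CPM. The keratinocyte markers summed to 3.998 to 7.31 CPM, the fibroblast markers to 3.29 to 17.4 CPM and the leukocyte markers to 0.852 to 1.52 CPM. The fibroblast sum moved with the drug, at 16.3 and 13.6 CPM in wild-type and knockout DMSO and at 5.11 and 3.77 CPM with JQ1, and its part in the results was not tested.

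The sequences shown here are windows around annotated starts, 250 bases before to 50 bases after, from RefSeq (GRCh38.p14), for genes whose counts in the knockout differed from those of a close copy or neighbour. Capitals mark CG, the dinucleotide that carries DNA methylation. Of the 74 members, 56 had such a window, with 75 windows in all. The first is shared letter for letter by GAGE12F (chrX:49560592-49560891, plus strand) and by windows of GAGE1, GAGE2A, GAGE12C, GAGE12D, GAGE12E, GAGE12H and GAGE12J. MAGEC1 (chrX:141903644-141903943, plus strand) and MAGEC2 (chrX:142205241-142205540, minus strand) are neighbours of unlike level, and SSX4 (chrX:48383289-48383588, plus strand) is a low-level gene that was lower in the knockout.
GAGE12F: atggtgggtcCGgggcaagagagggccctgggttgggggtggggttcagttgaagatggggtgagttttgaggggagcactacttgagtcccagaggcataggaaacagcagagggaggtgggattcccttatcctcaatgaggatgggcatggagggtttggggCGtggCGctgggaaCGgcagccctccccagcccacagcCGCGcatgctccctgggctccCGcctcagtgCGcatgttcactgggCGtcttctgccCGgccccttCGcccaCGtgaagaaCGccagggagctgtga
MAGEC1: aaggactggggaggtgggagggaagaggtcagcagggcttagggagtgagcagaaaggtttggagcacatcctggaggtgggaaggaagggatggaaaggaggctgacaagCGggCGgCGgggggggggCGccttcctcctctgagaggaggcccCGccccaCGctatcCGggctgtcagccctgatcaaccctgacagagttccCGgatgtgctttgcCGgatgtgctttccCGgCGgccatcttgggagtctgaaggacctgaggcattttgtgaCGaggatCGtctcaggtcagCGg
MAGEC2: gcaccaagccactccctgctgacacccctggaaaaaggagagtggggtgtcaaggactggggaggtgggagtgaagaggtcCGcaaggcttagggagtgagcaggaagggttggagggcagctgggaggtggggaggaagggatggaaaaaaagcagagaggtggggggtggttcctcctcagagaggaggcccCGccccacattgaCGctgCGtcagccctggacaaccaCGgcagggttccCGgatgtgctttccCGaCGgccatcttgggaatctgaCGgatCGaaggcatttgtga
SSX4: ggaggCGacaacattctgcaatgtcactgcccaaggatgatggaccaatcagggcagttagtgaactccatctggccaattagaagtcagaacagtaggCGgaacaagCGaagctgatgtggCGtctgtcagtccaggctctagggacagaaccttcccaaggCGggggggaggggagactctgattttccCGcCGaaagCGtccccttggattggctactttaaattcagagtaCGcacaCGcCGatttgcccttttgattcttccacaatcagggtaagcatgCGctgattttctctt

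These windows held 13 CG in GAGE12F, 14 in MAGEC1, 10 in MAGEC2 and 12 in SSX4. Among all 35116 windows of the RefSeq table the median was 14 CG (quartiles 4 and 28), and 96.0% held at least 1. The letters GGGCGG, the core of a GC box, occurred on either strand 2 times in the MAGEC1 window and 1 time in the MAGEC2 window, and in 45.0% of all windows. They were not in the GAGE12F or SSX4 window. TATAAA was in none of the 75 windows of the members and in 11.5% of all windows. A match of letters is a description only.

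In wild-type DMSO cultures a few members carried most of the signal. Per kilobase of transcript, MAGEA4 was highest at 491 ± 11.5 CPM per kb (SD, n = 3), followed by the CT45A sum at 358 ± 9.14. PAGE5 at 218 ± 6.17 and PRAME at 208 ± 2.98 CPM per kb came next and lay close together, with XAGE1A and XAGE1B at 186 ± 11.7 and CTAG1A and CTAG1B at 158 ± 4.88. MAGEA3 with MAGEA6 stood at 112 ± 4.26 CPM per kb. The GAGE sum (87.7 ± 2.30) and PAGE2 with PAGE2B (86.9 ± 0.878) lay close together, as did MAGEA12 (44.1 ± 1.49) and MAGEA10 (42.0 ± 1.54). MAGEA2 with MAGEA2B (78.7 ± 2.02) and MAGEC2 (65.8 ± 2.20) lay between these pairs. MAGEA11 (13.9 ± 0.223) and SSX2 with SSX2B (10.1 ± 0.109 CPM per kb) were lower, and every other group with a GENCODE length was at or below 1.29 CPM per kb, the value of MAGEA1. Each length was the median over all GENCODE transcripts of a gene, at 815.5 bases for PRAME (14 transcripts) and 841 bases for MAGEA10 (6 transcripts). The near-identical copies MAGEA2 and MAGEA2B had 1830 and 704 bases. The order below the CT45A sum and the close pairs therefore rest on the lengths used. In CPM, with no division by length, MAGEA4 (497) and the CT45A sum (336) were again highest, but MAGEA3 with MAGEA6 (174) came next. MAGEA12 was at 73.4 ± 2.47 CPM and MAGEA10 at 35.3 ± 1.29 CPM. The GAGE sum was at 52.2 CPM and PAGE2 with PAGE2B at 39.6 CPM, and PAGE5 was at 118 CPM and PRAME at 170 CPM. MAGEA4 alone held 25.04% ± 0.138 of all counts of the families.

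**Figure D1:**
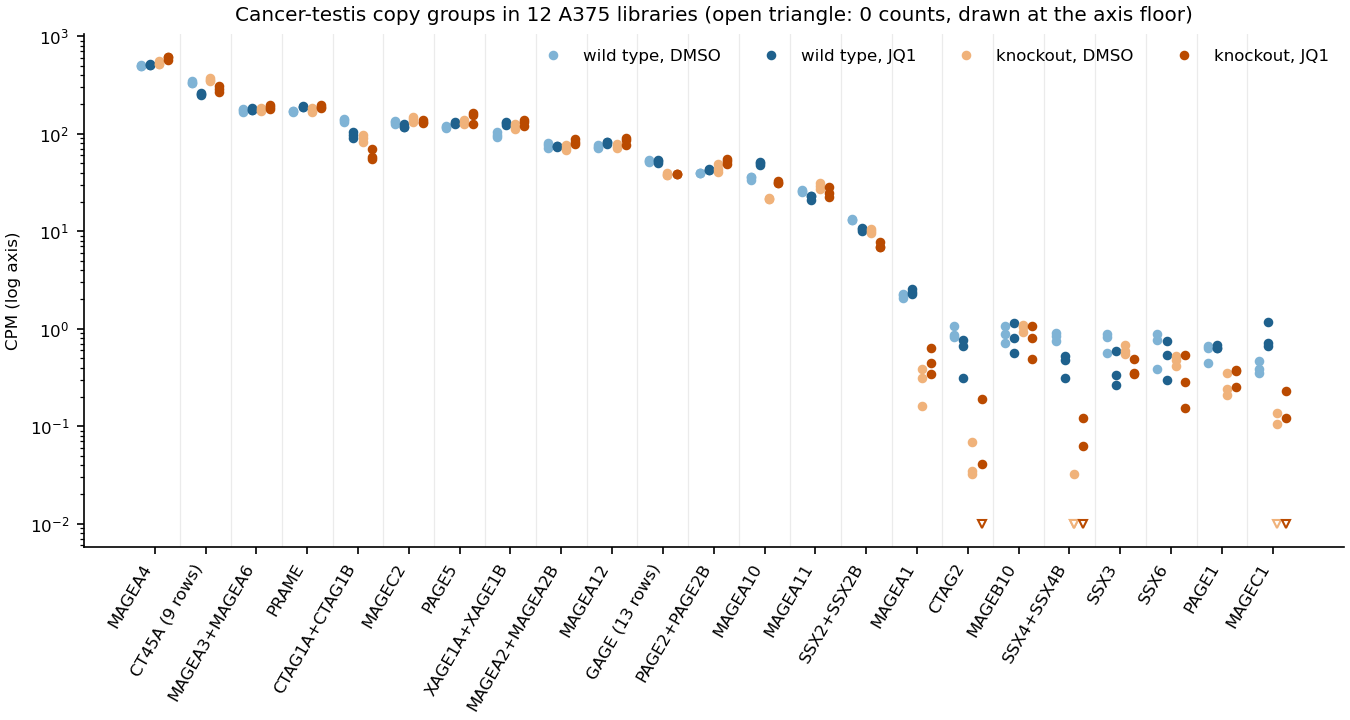
CPM (log axis) of each of the 23 tested copy groups in the 12 libraries, 1 point per library, coloured by group and ordered by level in wild-type DMSO; open triangles are libraries with 0 counts. The 15 groups from MAGEA4 to SSX2 with SSX2B lie within 1 decade or less across all 12 libraries, while MAGEA1, CTAG2, SSX4 with SSX4B and MAGEC1 sit lower in the knockout.

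Knockout against wild type asked which members differ in cells without MAPKAPK2. In DMSO, 8 of the 23 tested copy groups passed edgeR's quasi-likelihood test at an adjusted p under 0.05, against 7.87% of all 21677 genes and copy groups tested. One was higher (background 3.46%), XAGE1A with XAGE1B, and 7 were lower (background 4.41%): CTAG1A with CTAG1B, CTAG2, the GAGE sum, MAGEA1, MAGEA10, SSX2 with SSX2B, and SSX4 with SSX4B. In JQ1, 10 of 23 passed, against 8.54%, with 2 higher (MAGEA4, and PAGE2 with PAGE2B; background 3%) and 8 lower (background 5.54%). The 7 that were lower in DMSO were lower in JQ1 as well, and MAGEC1 was the eighth. Of all features, 4.33% were called the same way in both treatments. The median log2 fold change of the 23 was -0.08 in DMSO and -0.04 in JQ1, beside 0.00 over all features in both.

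Level matters to these counts. CTAG2, MAGEA1, MAGEC1, PAGE1 and SSX4 with SSX4B reached 10 counts in all replicates of a wild-type group and of no knockout group. CTAG2, MAGEC1 and SSX4 with SSX4B could enter the test only through the genotype where they were high. MAGEA1 and PAGE1 had 5 to 20 and 6 to 11 counts per knockout library, and could meet the filter in either genotype. No count that includes any of these groups is taken to support a direction. The other 18 groups reached 10 counts in all replicates of a group in each genotype. Of these, 4 were lower and 1 higher in DMSO, and 4 were lower and 2 higher in JQ1. Over all tested features, without this rule, 4.41% were lower and 3.46% higher in DMSO, and 5.54% and 3% in JQ1. Among features with a mean count of at least 100, a limit chosen after the values were seen, 5 of 15 groups passed in DMSO beside 10.6% of such features, and 6 of 15 in JQ1 beside 11.7%. Among the 650 other tested features of the X chromosome, 10.8% passed in DMSO (5.08% lower) and 11.2% in JQ1 (6.77% lower).

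**Figure D2:**
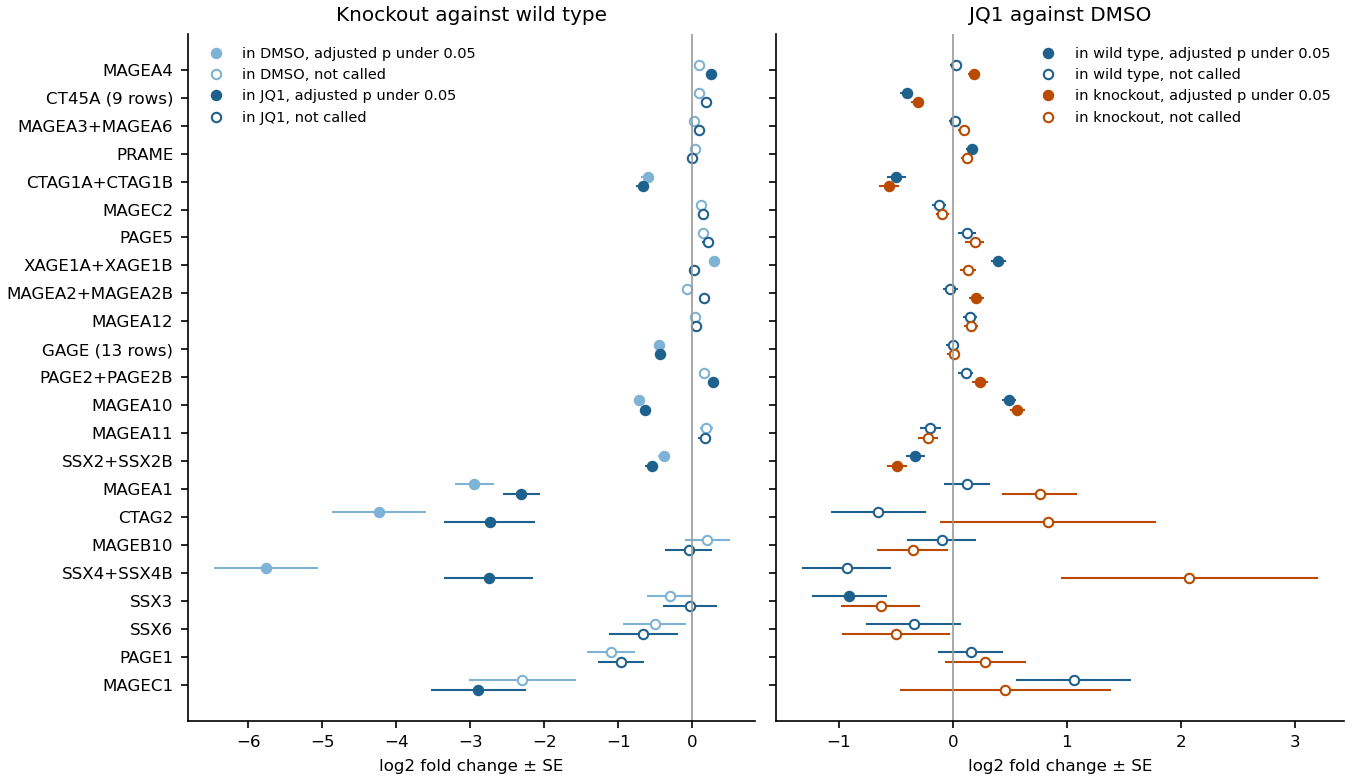
Log2 fold change ± SE of the 23 copy groups, ordered by level, for knockout against wild type (left) and for JQ1 against DMSO (right); filled points passed an adjusted p under 0.05. In the left panel the groups with fold changes beyond -2 are MAGEA1, CTAG2, SSX4 with SSX4B and MAGEC1, and in the right panel MAGEA10 lies to the right and CTAG1A with CTAG1B to the left of 0 in both genotypes.

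Among the MAGE-A genes, which encode ligase-binding proteins, MAGEA10 and MAGEA1 were lower in the knockout and MAGEA4 was not. MAGEA10 was at 35.7, 33.9 and 36.3 CPM in wild-type DMSO and at 21.7, 21.2 and 21.5 CPM in knockout DMSO. With JQ1 it was at 47.4, 50.9 and 50.6 CPM in wild type and at 33.1, 31.2 and 31.05 CPM in the knockout. The genotypes did not overlap in either treatment, and the replicates of each group lay within a few CPM. The log2 fold change was -0.72 (SE 0.06, adjusted p = 3.45e-06) in DMSO and -0.64 (SE 0.06, adjusted p = 7.75e-06) in JQ1 (edgeR quasi-likelihood, Benjamini-Hochberg).

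MAGEA1, the first gene of the family to be found as a tumour antigen, was far less abundant. Its CPM were 2.29, 2.23 and 2.09 in wild-type DMSO and 0.160, 0.309 and 0.386 in knockout DMSO. In JQ1 they were 2.26, 2.56 and 2.40 in wild type and 0.343, 0.446 and 0.633 in the knockout. Every knockout library was below every wild-type library, with 5 to 20 counts against 63 to 81. The gene could meet the low-count filter in either genotype, though its knockout counts were low. The log2 fold change was -2.95 (SE 0.27, adjusted p = 5.16e-06) in DMSO and -2.31 (SE 0.25, adjusted p = 2.47e-05) in JQ1 in edgeR's test, so that the mean was 12.9% and 19.7% of wild type.

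MAGEA4 was at 490.5, 490.0 and 510.3 CPM in wild-type DMSO and at 551, 517 and 516 CPM in knockout DMSO. Its knockout difference in DMSO was 0.09 (approximate 95% interval 0.00 to 0.18) and did not pass. In JQ1 the values were 501, 514 and 501 CPM in wild type and 611, 576 and 610.2 CPM in the knockout, and the difference of 0.25 (SE 0.05, edgeR adjusted p = 0.00383) passed. MAGEA3 with MAGEA6, MAGEA12, MAGEA2 with MAGEA2B, and MAGEA11 did not pass in either treatment. For MAGEA3 with MAGEA6 the interval in DMSO was -0.09 to 0.12, and for MAGEA12 it was -0.09 to 0.17, both narrower than the MAGEA10 difference. The interval of MAGEA2 with MAGEA2B was -0.21 to 0.05. That of MAGEA11 was wider and lay just above 0, at 0.02 to 0.36, though edgeR's unadjusted p was 0.0503 (adjusted p = 0.255).

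The CTAG genes encode NY-ESO-1 (CTAG1A and CTAG1B, an inverted pair of copies) and LAGE-1 (CTAG2). CTAG1A with CTAG1B was at 133, 139 and 141 CPM in wild-type DMSO and at 83.1, 97.3 and 90.6 CPM in knockout DMSO. With JQ1 it was at 98.0, 103.6 and 91.2 CPM in wild type and at 58.1, 54.9 and 70.3 CPM in the knockout. Each treatment kept the genotypes apart, and the knockout with JQ1 was lowest of the 4 groups. The knockout difference was -0.61 (SE 0.09, adjusted p = 3.69e-04) in DMSO and -0.67 (SE 0.09, adjusted p = 1.53e-04) in JQ1 in edgeR's test. The 2 rows shared the sum in steady parts, CTAG1A with 46.37% to 47.85% of it in every library. Of the 31-base words of CTAG1A transcripts, 49.1% occurred in no gene outside the pair.

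CTAG2 had 29, 23 and 39 counts in wild-type DMSO and 1, 2 and 1 in knockout DMSO. In JQ1 it had 10, 18 and 26 counts in wild type and 0, 1 and 6 in the knockout. Summed over each group and scaled, wild type was 20.6 times the knockout in DMSO (95% exact interval 7.77 to 77.1) and 6.87 times in JQ1 (3.12 to 17.9). These intervals, like those for other low counts here, cover counting error only. CTAG2 entered the test only through wild type, so its adjusted p (6.14e-04 in DMSO and 0.0106 in JQ1, edgeR) is given as a description. Without knockout JQ1 replicate 3 the fitted difference in JQ1 moved from -2.74 to -4.62, and without wild-type JQ1 replicate 3 its adjusted p was 0.0516.

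SSX2 with SSX2B, detected in both genotypes, was lower in the knockout. SSX2 with SSX2B was at 12.995, 13.2 and 13.2 CPM in wild-type DMSO and at 9.97, 10.5 and 9.65 CPM in knockout DMSO. With JQ1 it was at 10.7, 10.1 and 10.5 CPM in wild type and at 6.93, 7.71 and 6.84 CPM in the knockout. The knockout difference was -0.39 (SE 0.08, adjusted p = 0.00939) in DMSO and -0.55 (SE 0.09, adjusted p = 9.36e-04) in JQ1 in edgeR's test. Without knockout DMSO replicate 3 the first of these had an adjusted p of 0.0571.

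SSX4 and SSX4B, whose 2 rows carried identical rounded counts in all 12 libraries, were almost undetected in the knockout and entered the test only through wild type, so their adjusted p is a description. Their sum was at 0.835, 0.744 and 0.907 CPM in wild-type DMSO, and in knockout DMSO a single count was seen over 3 libraries. The scaled ratio of wild type to knockout was 74.2 in DMSO (95% exact interval 12.9 to 2965) from 82 counts against 1. In JQ1 it was 7.13 (2.81 to 23.1) from 40 counts against 5. Adjusted p was 1.06e-04 in DMSO and 0.00909 in JQ1 (edgeR), and the fitted log2 fold change went from -5.76 to -7.65 without knockout DMSO replicate 1, the library with that count, and from -2.75 to -3.51 in JQ1 without knockout JQ1 replicate 2. SSX3 and SSX6, at 0.753 ± 0.165 and 0.681 ± 0.261 CPM in wild-type DMSO, did not pass, with knockout differences of -0.31 (SE 0.31) and -0.51 (SE 0.42) in DMSO.

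Of the MAGE-C pair, MAGEC1 was low and MAGEC2 was abundant. MAGEC1 entered the test only through wild type, so its adjusted p values, here and under the alternatives, are a description. MAGEC1 had 13, 10 and 17 counts in wild-type DMSO and 0, 4 and 3 in knockout DMSO, a scaled ratio of 5.17 (95% exact interval 2.29 to 13.7). In JQ1 it had 37, 18 and 24 counts in wild type and 6, 3 and 0 in the knockout. The genotypes did not overlap in either treatment. The difference passed in JQ1 (-2.90, SE 0.64, adjusted p = 0.0102) and missed in DMSO (-2.30, SE 0.72, adjusted p = 0.0706) in edgeR's test. The DMSO call was made with no low-count filter (adjusted p = 0.00486), by DESeq2 (0.0343), with only those 6 libraries fitted (0.0289) and without knockout JQ1 replicate 3 (0.0196). The JQ1 call was lost without wild-type JQ1 replicate 1 (0.0556), and its size was -3.87 without knockout JQ1 replicate 1 and -2.24 without knockout JQ1 replicate 3. MAGEC2 was at 131, 127 and 136 CPM in wild-type DMSO and at 149.7, 133 and 143 CPM in knockout DMSO, and its difference of 0.12 (approximate 95% interval 0.00 to 0.23) did not pass.

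**Figure D3:**
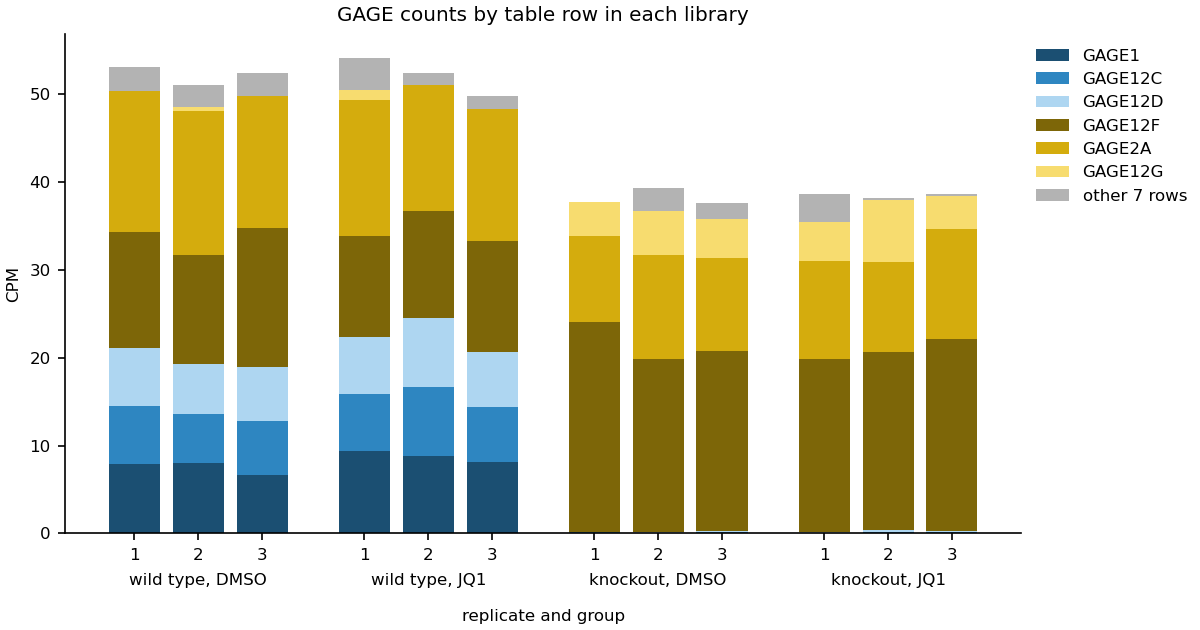
CPM of GAGE in each library (bars, replicates 1 to 3 of each group), divided by row of the count table. The bars reach 49.8 to 54.2 CPM in wild type and 37.6 to 39.3 CPM in the knockout; the 3 blue sections (GAGE1, GAGE12C and GAGE12D) are present in the 6 wild-type bars and all but absent in the 6 knockout bars, where the dark GAGE12F and pale GAGE12G sections are larger.

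GAGE genes form a tandem array on the short arm of X and encode small acidic proteins. The sum of the 13 GAGE rows was at 53.1, 51.1 and 52.5 CPM in wild-type DMSO and at 37.8, 39.3 and 37.6 CPM in knockout DMSO. With JQ1 it was at 54.2, 52.5 and 49.8 CPM in wild type and at 38.7, 38.2 and 38.6 CPM in the knockout. The genotypes did not overlap, and within each genotype the DMSO and JQ1 values overlapped. The knockout difference was -0.45 (SE 0.06, adjusted p = 1.23e-04) in DMSO and -0.44 (SE 0.06, adjusted p = 1.47e-04) in JQ1 in edgeR's test.

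The make-up of that sum by row differed between the genotypes. GAGE1 had 266, 226 and 242 counts in wild-type DMSO and 297, 238 and 275 in wild-type JQ1, and 0 in each of the 6 knockout libraries. Against a floor of 3 counts over the group, it was at least 221-fold lower in the knockout in DMSO and at least 241-fold lower in JQ1. GAGE12C and GAGE12D had identical counts in all libraries, 159 to 223 in wild type and 2 to 5 in the knockout. GAGE12F moved the other way, from 13.3, 12.4 and 15.8 CPM in wild-type DMSO to 23.9, 19.7 and 20.5 CPM in knockout DMSO, and its share of the GAGE sum went from 26.5% to 56.0%. As a row of its own it was higher in the knockout (0.63, SE 0.10, adjusted p = 0.00119 in DMSO; 0.77, SE 0.10 in JQ1; edgeR with copies not summed). GAGE12G had 0, 11 and 0 counts in wild-type DMSO and 120, 145 and 125 in knockout DMSO. GAGE2A was lower, at 16.1, 16.5 and 15.1 CPM against 9.78, 11.9 and 10.6 CPM in DMSO (-0.56, SE 0.10, adjusted p = 0.00168).

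How far each row can be told from the others was measured on GENCODE 29 transcripts (GRCh38) as the share of 31-base words found in no other gene. That share was 0% for GAGE12C, GAGE12D, GAGE12E and GAGE12G, 2.70% for GAGE12F and 6.63% for GAGE2A. For GAGE1, whose annotated span (chrX:49589496-49608536) includes GAGE2A, it was 85.8%. The annotation used in counting is not given, so these shares, that of GAGE1 among them, may not hold for the counted rows. Every GAGE row but GAGE12B shared at least 90.0% of its words only within the family, so the sum is better determined than any row. Counts of GAGE2A, GAGE12C, GAGE12D, GAGE12F and GAGE12G depend on how the counting tool divides shared words. The move between them is uncertain as a change of single genes, and so is the fall of GAGE2A. GAGE12C, GAGE12D and GAGE12F also share the start window printed above, and the GAGE12G window holds the same sequence shifted by a few bases.

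PAGE, XAGE, CT45A and PRAME showed small knockout differences or none that passed. PAGE1 lies next to the GAGE array and could meet the low-count filter in either genotype. It was at 0.447, 0.637 and 0.660 CPM in wild-type DMSO and at 0.353, 0.240 and 0.211 CPM in knockout DMSO. Its difference of -1.10 (SE 0.32, edgeR adjusted p = 0.0521) missed the threshold, which it passed without knockout JQ1 replicate 3 (0.0430) and with library totals as the only scaling (0.0444). These adjusted p values of PAGE1 lay close to the threshold and are a description. PAGE2 with PAGE2B, nearly all of it from the PAGE2 row, passed in JQ1 only (0.28, SE 0.07, adjusted p = 0.0197), and PAGE5 passed in neither. The PAGE2 call was lost without wild-type JQ1 replicate 1, 2 or 3 or knockout JQ1 replicate 1, with edgeR adjusted p from 0.0527 to 0.0770. It was also lost with only the groups compared (0.0765).

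XAGE1A with XAGE1B was at 91.4, 96.3 and 103.6 CPM in wild-type DMSO and at 127, 119 and 110.7 CPM in knockout DMSO. It was higher by 0.29 (SE 0.07, edgeR adjusted p = 0.0150), and this call was lost without wild-type DMSO replicate 1 (0.0806) or 2 (0.0595) or knockout DMSO replicate 1 (0.0659) or 2 (0.0520). In JQ1 the difference was 0.03 (approximate 95% interval -0.11 to 0.16). The CT45A sum differed by 0.09 (-0.02 to 0.20) in DMSO and 0.18 (0.07 to 0.29, adjusted p = 0.0615) in JQ1. PRAME, the only member tested that lies off the X chromosome, on chromosome 22, was at 171, 167 and 171 CPM in wild-type DMSO and at 173, 167 and 184 CPM in knockout DMSO, a difference of 0.04 (-0.06 to 0.14). The knockout difference of PRAME in JQ1 was -0.01 (-0.11 to 0.09).

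Some groups that were lower in the knockout had neighbours on the X chromosome that were not. MAGEA10 (chrX:152133310-152138578, minus strand) is 208 kb from MAGEA4 (chrX:151912509-151925170, plus strand), and MAGEA1 (chrX:153179285-153183880, plus strand) is 410 kb from MAGEA6, by the GENCODE 29 annotation of GRCh38. MAGEC1 and MAGEC2 are 293 kb apart. CTAG1B (chrX:154617609-154619282, minus strand) and CTAG2 (chrX:154651972-154653579, minus strand) are 32.7 kb apart, and both were lower. XAGE1B, higher in DMSO, is 176 kb from SSX2, lower in DMSO. Other neighbours went the same way: SSX3, SSX4 with SSX4B, the GAGE sum and PAGE1, next to each other on the short arm, all had negative differences in DMSO, whether called or not. PAGE2 with PAGE2B, PAGE5 and the CT45A sum, which follow each other in order though not closely, all had positive ones, none called. MAGEA1, CTAG1A with CTAG1B and CTAG2, the last groups on the long arm, were all called lower. SSX4 with SSX4B, MAGEC1 and CTAG2 could enter the test only through wild type, and PAGE1 and MAGEA1 had low knockout counts. These runs therefore support no direction. Whether direction goes with position was not tested.

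**Figure D4:**
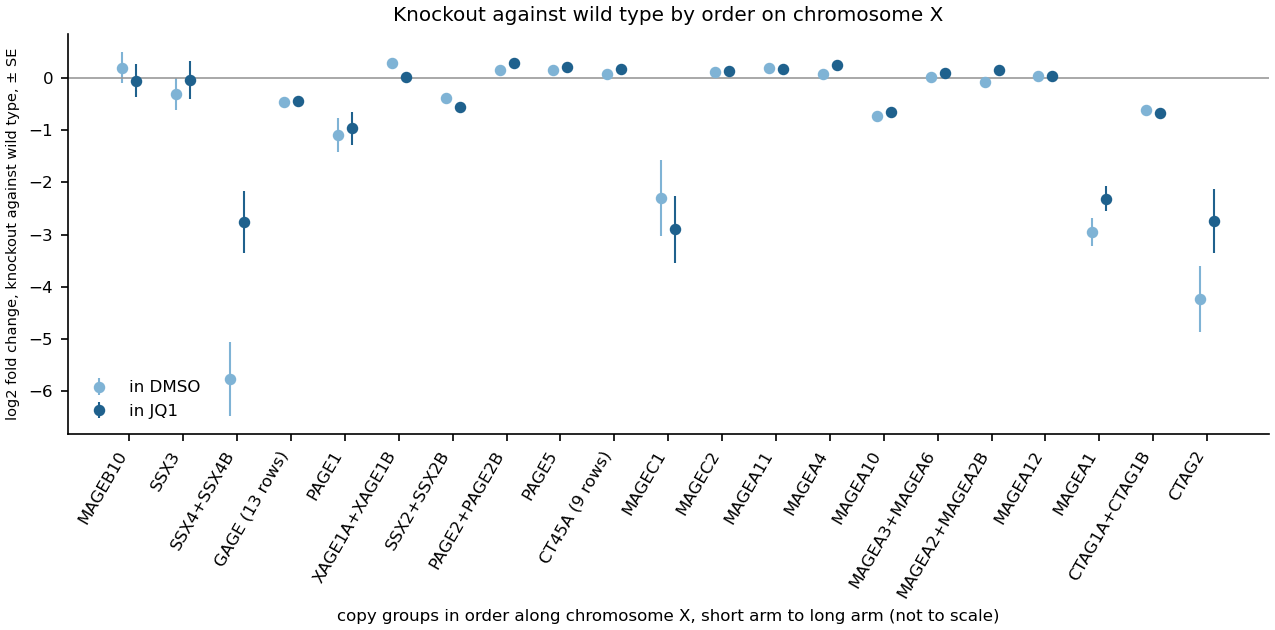
Log2 fold change ± SE of knockout against wild type, in DMSO and in JQ1, for the 21 tested copy groups placed in order along the X chromosome (not to scale; SSX6 had no position and PRAME is on chromosome 22). Groups with fold changes beyond -2 (SSX4 with SSX4B, MAGEC1, MAGEA1 and CTAG2) are separated by groups with smaller differences. Of the groups beyond -2, all but MAGEA1 could enter the test only through wild type.

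JQ1 against DMSO asked which members respond to BET inhibition in each genotype. In wild type 7 of 23 copy groups passed edgeR's test, against 33.1% of all features, so the share of members was near the background. MAGEA10, PRAME and XAGE1A with XAGE1B were higher (3; background 16.9%), and the CT45A sum, CTAG1A with CTAG1B, SSX2 with SSX2B and SSX3 were lower (4; background 16.2%). In the knockout 7 of 23 passed, against 34.4%: MAGEA10, MAGEA4, MAGEA2 with MAGEA2B, and PAGE2 with PAGE2B higher (4; background 16.7%), and the CT45A sum, CTAG1A with CTAG1B, and SSX2 with SSX2B lower (3; background 17.8%). The median log2 fold change of the 23 was 0.00 in wild type (all features -0.03) and 0.13 in the knockout (all features 0.00). Called the same way in both genotypes were 4 groups: MAGEA10, the CT45A sum, CTAG1A with CTAG1B, and SSX2 with SSX2B. Of all features, 25.2% were called the same way in both. With library totals as the only scaling the split was 2 higher and 7 lower in wild type and 1 higher and 5 lower in the knockout, and the median of all features moved by -0.13 and -0.12.

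MAGEA10 rose with JQ1 by 0.49 (SE 0.06, adjusted p = 2.03e-05) in wild type and by 0.57 (SE 0.06, adjusted p = 6.48e-06) in the knockout in edgeR's test. The means were 35.3 ± 1.29 and 49.6 ± 1.92 CPM (SD, n = 3) in wild type and 21.5 ± 0.233 and 31.8 ± 1.13 CPM in the knockout, so JQ1-treated knockout cells stayed below wild-type cells in DMSO. No replicate of a DMSO group reached a JQ1 group of its genotype.

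CTAG1A with CTAG1B fell with JQ1 by 0.50 (SE 0.09, adjusted p = 4.22e-04) in wild type and by 0.56 (SE 0.09, adjusted p = 1.47e-04) in the knockout in edgeR's test. Its mean was 138 ± 4.25 CPM in wild-type DMSO and 61.1 ± 8.11 CPM in the knockout with JQ1 (SD, n = 3).

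The CT45A sum, from an array on the long arm of X, was at 346, 329.6 and 334 CPM in wild-type DMSO and at 247, 255 and 260.1 CPM in wild-type JQ1. In the knockout it was at 374, 353 and 343 CPM in DMSO and at 307, 287 and 270.1 CPM in JQ1. The drug groups did not overlap. The fall was 0.40 on the log2 scale in wild type (-0.40, SE 0.06, adjusted p = 5.83e-05) and 0.31 in the knockout (-0.31, SE 0.06, adjusted p = 5.14e-04) in edgeR's test. CT45A3 with 40.7% and CT45A5 with 27.6% of the sum in wild-type DMSO carried most of it, then CT45A1 (15.3%) and CT45A10 (12.9%), and these parts moved by a few percentage points between groups. SSX2 with SSX2B fell by 0.33 (adjusted p = 0.00715) in wild type and 0.49 (adjusted p = 5.08e-04) in the knockout, also by edgeR, and the wild-type call was lost with no low-count filter (0.0519).

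Other drug differences passed in 1 genotype only, which does not show that the genotypes differ. XAGE1A with XAGE1B rose by 0.40 (SE 0.07, edgeR adjusted p = 4.06e-04) in wild type, and the knockout difference was 0.13 (SE 0.07, adjusted p = 0.162). PRAME rose by 0.17 (SE 0.05, adjusted p = 0.0190) in wild type, and in the knockout the difference was 0.12 (SE 0.05, adjusted p = 0.0829). MAGEA4 rose by 0.18 in the knockout (SE 0.05, adjusted p = 0.00752), and the wild-type difference was 0.02 (approximate 95% interval -0.07 to 0.12). The knockout rises of MAGEA2 with MAGEA2B (0.21, adjusted p = 0.0244) and PAGE2 with PAGE2B (0.24, adjusted p = 0.0154) were each lost without knockout DMSO replicate 2 or 3 or knockout JQ1 replicate 1. SSX3 fell by 0.91 in wild type (SE 0.33, adjusted p = 0.0445) with overlapping replicates, and this was lost with any of 8 single libraries left out, with a replicate block (0.0669), in DESeq2 (0.112), with no low-count filter (0.0870) and with only the groups compared (0.0598). The PRAME call was lost without replicate 2 of wild type in either treatment. With no low-count filter the calls of PRAME (edgeR adjusted p = 0.0682), MAGEA4 (0.0552) and MAGEA2 with MAGEA2B (0.0593) were lost. With only the groups compared, those of MAGEA4 (0.0699), MAGEA2 with MAGEA2B (0.108) and PAGE2 with PAGE2B (0.0955) were lost. With library totals as the only scaling the calls of PRAME, MAGEA4, MAGEA2 with MAGEA2B and PAGE2 with PAGE2B were lost. Their log2 fold changes were then 0.04, 0.07, 0.09 and 0.12, with edgeR adjusted p of 0.561, 0.266, 0.317 and 0.204. On that scaling MAGEA4 in wild type differed by -0.10, while MAGEA10 kept its call at 0.36 in wild type and 0.45 in the knockout.

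The GAGE sum did not pass for JQ1 in either genotype, with an approximate 95% interval of -0.11 to 0.11 in wild type and -0.10 to 0.12 in the knockout. MAGEA1 differed by 0.12 (SE 0.20) in wild type and 0.76 (SE 0.33, adjusted p = 0.0890) in the knockout, and MAGEC1 by 1.06 (SE 0.51, adjusted p = 0.126) in wild type, none of which passed in edgeR's test. The drug differences of CTAG2 and SSX4 with SSX4B in the knockout had standard errors of 0.95 and 1.13, and neither passed.

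The difference between the 2 drug responses, tested as an interaction, passed for 0 of the 23 copy groups in edgeR's test and in DESeq2, against 0.134% of all features. At an unadjusted p under 0.05 there were 4 of 23 copy groups, and 1818 of 21677 features overall. These 4 were XAGE1A with XAGE1B (-0.27, SE 0.10, adjusted p = 0.461), SSX4 with SSX4B (3.01, SE 1.21, adjusted p = 0.513), MAGEA2 with MAGEA2B (0.23, SE 0.09, adjusted p = 0.516) and MAGEA4 (0.16, SE 0.07, adjusted p = 0.538). For MAGEA10 and CTAG1A with CTAG1B, changed by drug and genotype alike, the interaction intervals were -0.09 to 0.25 and -0.31 to 0.17.

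Summed by family, with no test, the knockout was at 0.653 of wild type for CTAG, 0.732 for GAGE and 0.721 for SSX in DMSO, each with no overlap of replicates. XAGE was at 1.22 of wild type and PAGE at 1.11, also without overlap, while MAGE-A (1.02), CT45A (1.06), MAGE-C (1.08), MAGE-B (0.921) and PRAME (1.03) overlapped. The MAGE-A total hides MAGEA1 and MAGEA10 because MAGEA4 dominates it. All members together summed to 1984 ± 39.5 CPM and, with JQ1, 1943 ± 34.8 CPM in wild type (SD, n = 3). In the knockout the sums were 2012 ± 68.0 and, with JQ1, 2064 ± 65.2 CPM.

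**Figure D5:**
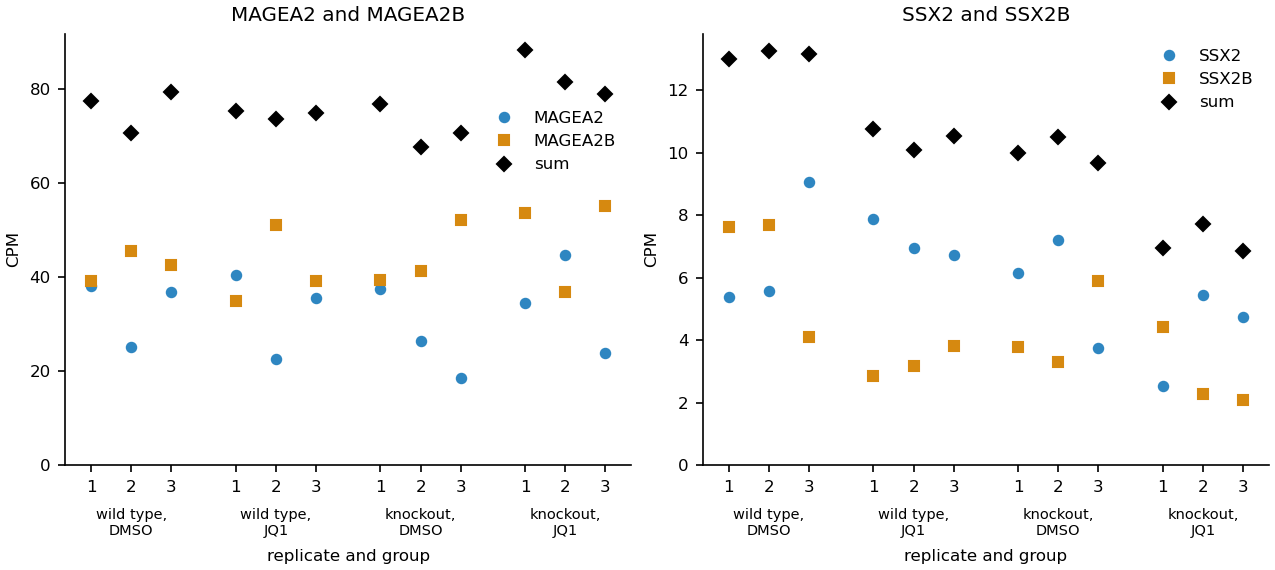
CPM of MAGEA2 and MAGEA2B (left) and of SSX2 and SSX2B (right) in the 12 libraries, with their sums as black diamonds. In several groups the single rows change order between replicates while their sum varies less, at 75.9 ± 4.55 CPM for MAGEA2 with MAGEA2B in wild-type DMSO.

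For MAGEA2 with MAGEA2B and SSX2 with SSX2B the division between rows varied widely. MAGEA2 took from 26.3% to 54.8% of the MAGEA2 and MAGEA2B sum across the 12 libraries, and SSX2 from 36.3% to 73.4% of the SSX2 and SSX2B sum. Of the 31-base words of MAGEA2, 2.19% were in no other gene, beside 74.8% in MAGEA2 or MAGEA2B only. MAGEA2 and MAGEA2B each also have a start window identical to the other's, as do MAGEA3 and MAGEA6, SSX2 and SSX2B, and XAGE1A and XAGE1B. MAGEA3 kept 60.6% to 65.65% of its pair and XAGE1A 49.0% to 49.6%. As a single row neither SSX2 (adjusted p = 0.723) nor SSX2B (0.296) passed for the knockout in DMSO in edgeR's test, while their sum did.

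Members below the filter were seen in traces. Of the 23 untested copy groups 7 were at 0 in all libraries and 16 had a count. MAGEB2, named after its values were seen, had 6, 5 and 7 counts in wild-type DMSO and 0, 0 and 1 in knockout DMSO, a scaled ratio of 16.3 (95% exact interval 2.57 to 678), with no test. MAGEB10 was the only MAGE-B gene tested, at 0.891 ± 0.179 CPM in wild-type DMSO and 1.02 ± 0.0856 CPM in knockout DMSO (SD, n = 3), with a difference of 0.20 (SE 0.30).

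Other cancer-testis genes outside these families were taken from a list of 31, of which 16 were tested. In the knockout 0 rose and 2 fell in each treatment, where 4.41% and 5.54% of all features fell, with a median of -0.10 in both, also with SPANXB1 at its bound. The medians over all features, for these lists too, were 0.00 in the knockout in both treatments, and with JQ1 -0.03 in wild type and 0.00 in the knockout. SPANXB1, a sperm protein gene of the X chromosome, had 58 counts over the wild-type DMSO libraries and 39 over the wild-type JQ1 libraries, and 0 in all 6 knockout libraries, so it entered the test only through wild type, at least 17.5-fold lower in DMSO and at least 11.6-fold lower in JQ1. The mitotic kinase gene PBK fell by 0.30 in DMSO (adjusted p = 0.0466, edgeR) and CEP55, which acts in the last step of cell division, by 0.31 in JQ1 (adjusted p = 0.0371). With JQ1, 0 rose and 4 fell in wild type (median -0.08), and 1 rose and 5 fell in the knockout (median -0.02), where 33.1% and 34.4% of all features passed. With library totals only, 0 rose and 6 fell in each. ACTL8, an actin-like gene, fell from 1.58 to 0.287 CPM in wild type and from 1.504 to 0.0752 CPM in the knockout. SAGE1 fell by 0.24 and 0.54 on the log2 scale. CSAG1 and CSAG3, which lie among the MAGE-A genes, did not pass in any contrast.

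The type II MAGE genes, which are expressed in many tissues, were tested in 7 of 11 cases. With JQ1, 7 rose in wild type (median 0.43; 16.9% of all features rose) and 4 in the knockout (median 0.39; 16.7% of all features), and none fell. With library totals as the only scaling, 3 rose in each. In the knockout MAGED2 was higher in DMSO (0.60, SE 0.06) and in JQ1 (0.56, SE 0.06), NDN in DMSO (0.44, SE 0.11, edgeR adjusted p = 0.0246) and MAGEH1 in JQ1 (0.37, SE 0.11, adjusted p = 0.0458). The medians were 0.20 and 0.33, and 3.46% and 3% of all features were higher. MAGED2 was at 58.7 ± 1.33 CPM in wild-type DMSO and 89.0 ± 3.599 CPM in knockout DMSO (SD, n = 3).

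Of 17 genes of DNA methylation and silencing 16 were tested. In the knockout 0 of 16 passed in either treatment (edgeR and DESeq2), where 7.87% and 8.54% of all features passed in edgeR, with 1 and 0 at an unadjusted p under 0.05 and medians of -0.01 and -0.03. DNMT1, which copies methylation at replication, differed by -0.01 (SE 0.10) between the genotypes in DMSO, and CTCFL, itself a cancer-testis gene, by -0.08 (SE 0.20). With JQ1, 2 rose and 6 fell in wild type (median -0.08), and 3 rose and 4 fell in the knockout (median -0.01), beside 16.2% and 17.8% of all features that fell. With library totals only the splits were 1 and 8, and 1 and 6. TRIM28, a corepressor that MAGE proteins bind, rose by 0.65 and 0.56, and DNMT1 by 0.28 and 0.31. TET1 fell by 0.45 and 0.50, TET2 by 0.40 and 0.55, and SETDB1 by 0.25 and 0.43, in wild type and knockout.

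All 9 genes of the ubiquitin ligases that MAGE proteins and PRAME work with were tested. In the knockout 0 of 9 passed in either treatment (edgeR and DESeq2), where 7.87% and 8.54% of all features passed in edgeR, with 0 and 1 at an unadjusted p under 0.05 and medians of 0.02 and 0.06. With JQ1, 4 rose and 1 fell in wild type (median 0.16), and 5 rose and 1 fell in the knockout (median 0.21), where 33.1% and 34.4% of all features passed. With library totals only the splits were 3 and 1, and 3 and 2. ELOB, the elongin B subunit of the PRAME ligase, rose by 0.60 and 0.55, and RBX1, its RING subunit, by 0.39 and 0.46. LNX1 fell by 0.40 and 0.75.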

How the data were processed

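RNA sequencing of 12 A375 cultures was described by a deposited table of estimated counts per gene symbol (56609 symbols) and a second deposited table of normalized signal (32828 genes), both made by the authors. The submitters' processing notes name Trim Galore, cutadapt, FastQC, MultiQC, kallisto, DESeq2 and GRCh38.p10. The annotation and the use of strand in counting are not given in the sources used here, although the labels' protocols describe directional libraries after ribosomal RNA depletion. Estimated counts depend on how reads shared by copies were divided, so copies were summed: all GAGE, all CT45A, CTAG1A with CTAG1B, MAGEA2 with MAGEA2B, MAGEA3 with MAGEA6, MAGEA9 with MAGEA9B, PAGE2 with PAGE2B, XAGE1A with XAGE1B, SSX2 with SSX2B, and SSX4 with SSX4B. The deposited normalized signal was used only to recompute family totals.

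Sums were rounded to whole numbers, filtered with filterByExpr (21677 features kept, 99.9% of counts), scaled by TMM (factors 0.927 to 1.06) and fitted over all 12 libraries with 1 term per group by the quasi-likelihood test of edgeR 4.0.16 under R 4.3.3 with limma 3.58.1, which was checked on simulated data. Benjamini-Hochberg adjustment covered all features, with a threshold of 0.05. SE was taken from the log2 fold change and its F statistic. Approximate 95% intervals come from it with a normal multiplier, so they are slightly narrower than the test implies. The knockout contrasts share libraries with the JQ1 contrasts, so their calls are not independent. Exact intervals for ratios of summed counts are binomial (Clopper-Pearson), and with 0 counts a floor of 3 counts over the group was used. Family totals are sums of CPM with no test. CPM per kb is the CPM of a row divided by the median length of all its GENCODE transcripts, summed over each copy group. Every tested copy group is named, and within a copy group rows were named from the 6 with the highest mean CPM; from related lists, at most 4 genes per contrast, ranked by adjusted p, and any others there were chosen after their values were seen. Members and lists were chosen with earlier results of these data known. Positions and 31-base words are from GENCODE 29 (GRCh38), and start windows from RefSeq (GRCh38.p14). Alternatives were library totals only, no filter, only the groups compared, a replicate block, copies not summed, an adjusted p of 0.01, DESeq2 1.42.0 and each library left out.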

Additional observations from a re-analysis of the deposited data

How the results depend on the processing

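The number of copy groups passing the test was 7 and 7 for JQ1 in wild type and knockout, 8 and 10 for the knockout in DMSO and JQ1, and 0 for the interaction. Leaving out 1 library at a time gave 5 to 9, 5 to 9, 7 to 10, 8 to 12 and 0 to 0. Without knockout JQ1 replicate 3 the counts were 9, 9, 10 and 12. DESeq2 gave 6, 7, 9 and 11. With copies not summed, 15, 12, 18 and 18 single rows passed, a count of rows and not of groups. Fitting only the groups compared gave 12 and 4 for JQ1 in wild type and knockout, and no low-count filter gave 4 for JQ1 in wild type. The cause was not tested. Shares of all features called under these alternatives are not given here, so these counts show nothing particular to the members.

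Replicate numbers were not shown to pair the libraries: same-numbered deviations correlated at -0.116 to 0.0857 over 18 pairs, and 2 of 12 libraries correlated best with their own number. A replicate block gave 6, 7, 8, 10 and 0; SSX3 with JQ1 in wild type was the call lost (adjusted p = 0.0669).

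Of 42 differences followed over 19 settings (776 values), 711 kept direction and side of the threshold, 51 lost it, 8 gained it and 6 changed sign, none of these 6 a call. With library totals only, MAGEA4 with JQ1 in wild type was -0.10 and PRAME in the knockout in DMSO was -0.0071. With 1 library left out, PRAME in the knockout in JQ1 ran from -0.0401 to 0.0125, above 0 without wild-type JQ1 replicate 2 (0.0029) or knockout JQ1 replicate 2. MAGEC1 with JQ1 in the knockout ran from -0.51 (without knockout JQ1 replicate 1) to 1.12, and was -0.13 without knockout DMSO replicate 1. All 40 family ratios computed from the deposited signal lay within the replicate spread. The drug differences in the knockout had standard errors of 0.95 for CTAG2 and 1.13 for SSX4 with SSX4B.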
